A study of Rattus norvegicus with 6 samples.

Results

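Transcript levels of 10 genes that build and modify collagen were followed in neonatal rat ventricular myocytes (NRVMs) treated with pediatric serum, either nonfailing (NF) or from dilated cardiomyopathy (DCM). The genes encode 7 collagen chains (Col4a1, Col4a2, Col5a1, Col6a2, Col6a6, Col7a1 and Col14a1) and 3 enzymes (Lox, Loxl4 and P4ha1). They are the rows of the deposited expression table with exactly these symbols, and all 10 were found among its 3221 rows. With DCM serum, 7 of the 10 were at a higher level than with NF serum in each of the 3 NRVM preparations (Col4a1, Col4a2, Col5a1, Col6a2, Col7a1, Lox and P4ha1), and 3 were at a lower level in each (Col6a6, Col14a1 and Loxl4). The mean differences ran from 13.3% for Col5a1 to a 3.51-fold higher level for Col7a1.

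Collagens are secreted proteins of the extracellular matrix whose chains wind around each other as a triple helix. Collagen IV forms the network of basement membranes, which surround each cardiac myocyte and underlie the endothelium. Collagen V is built into the core of fibrils and limits their diameter, collagen VI forms beaded microfibrils close to the cell surface, collagen VII forms anchoring fibrils at the dermal-epidermal junction, and collagen XIV binds to the surface of existing fibrils. Before secretion, prolyl 4-hydroxylases such as the one with the P4ha1 subunit modify proline residues and thereby make the helix stable. After secretion, lysyl oxidases such as Lox and Loxl4 oxidize lysine residues, which then form the crosslinks that stiffen collagen and elastin. Cardiac fibroblasts are the main source of fibrillar collagen in the heart, and NRVM cultures can contain some of them.

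NRVMs were isolated from the ventricles of Sprague-Dawley rats at postnatal day 2 and cultured with 1% serum for 72 hours, according to the labels, while the study's methods give a higher serum share and a range of times. Each serum group has 3 libraries, 1 from each of 3 NRVM preparations, which are named A, B and C here. Each library pools RNA from 2 plates. The 3 DCM libraries carry 3 different serum labels, and NF library A carries another label than NF libraries B and C. In these comparisons serum source and preparation cannot be told apart. The NF libraries of preparations B and C carry the same serum label, but whether they received the same serum is not stated. All libraries share the human serum, which is foreign to rat cells, and a library of untreated cells was not analysed here. RNA came from whole cultures, so fewer cells of a type and less RNA per cell cannot be told apart.

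Expression is given as FPKM, a fragment count scaled to transcript length and to the mapped reads of the library, which allows levels to be compared between genes. The read counts behind single values are unknown. All rows of the table were kept by the authors for a q under 0.10 in their own comparison of DCM with NF serum, and the members were chosen from that table with its results known. The DCM to NF ratios below are therefore a description, for which no test is given, and their agreement between preparations comes with the selection. Every row of the table has a single direction in all 3 preparations, with 7.82% of rows higher and 92.2% lower. The groups did not overlap, with the lowest DCM library above the highest NF library, for 6 members (Col4a1, Col4a2, Col6a2, Col7a1, Lox and P4ha1), against 2.73% of all rows in that direction and 28.4% in either direction. No member had all DCM libraries below all NF libraries, which 25.7% of rows did. In a limma fit over all rows with the preparation as a block, 9 of the 10 members were called at an adjusted p under 0.10, 7 higher and 2 lower, against 67.8% of rows (6.24% called higher and 61.6% called lower). The member not called was Col6a6. That fit tests the contrast by which the rows were chosen, so nothing is read from it for the members or for any other gene of the table. Without the block, limma called 4 rows (0.124%) and no member. At an unadjusted p under 0.05 it had 6 members, against 16.5% of rows. The fit without the block tests the same contrast, so nothing is read from it either.

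The genes of the 2 collagen IV chains lie head to head, and their shared upstream stretch is shown here. Their mean log2 ratios of DCM to NF serum were 0.53 (Col4a1) and 0.49 (Col4a2). P4ha1, on chromosome 20, had a similar 0.57. A part of the shared stretch in these ratios was not tested. RefSeq promoter windows, from 250 bases before to 50 bases after a gene start, were matched by symbol for 7 of the 10 members, and Col6a2, Col14a1 and Lox had no entry. In the GRCr8 assembly, the window of Col4a1 is chr16:84885347-84885646 on the plus strand and that of Col4a2 is chr16:84885471-84885770 on the minus strand. The starts are separated by 76 bases, which are in capitals in the Col4a1 window, and Col4a2 is read from them in the opposite direction.
Col4a1: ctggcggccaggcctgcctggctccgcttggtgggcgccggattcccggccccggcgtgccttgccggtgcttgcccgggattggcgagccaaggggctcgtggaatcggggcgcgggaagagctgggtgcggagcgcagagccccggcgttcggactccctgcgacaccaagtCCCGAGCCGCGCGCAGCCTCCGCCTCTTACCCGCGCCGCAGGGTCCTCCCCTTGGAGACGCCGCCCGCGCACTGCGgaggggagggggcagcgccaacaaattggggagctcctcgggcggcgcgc
Of the 16845 plus-strand starts in the RefSeq table, 348 (2.07%) had a minus-strand start within this distance upstream. The 76 bases are 78.9% G or C. They hold 1 match to the GC box (GGGCGG, either strand), here on the minus strand with its first base at position -16 from the Col4a1 start, and no match to CCAAT or TATAAA.

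The window of Col7a1, the member with the largest ratio, is shown for comparison. It lies at chr8:118483114-118483413 of GRCr8 on the plus strand, and its single GC box is in capitals.
Col7a1: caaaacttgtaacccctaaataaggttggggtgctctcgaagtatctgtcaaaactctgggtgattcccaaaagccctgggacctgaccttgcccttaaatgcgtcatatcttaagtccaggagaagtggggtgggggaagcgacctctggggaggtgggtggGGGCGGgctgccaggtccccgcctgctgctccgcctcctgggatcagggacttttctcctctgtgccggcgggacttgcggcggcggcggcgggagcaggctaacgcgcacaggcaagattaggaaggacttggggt
Its GC share was below the 75.0% of Col4a1 and above 51.7%, the median of all windows. A GC box was found on either strand in all 7 member windows, higher and lower genes alike, and in 33.1% of 33469 windows. The windows of Col4a1 and Col4a2 share 176 bases, which hold the same 2 GC boxes. All 7 windows were above the median GC share, from 53.3% (Col6a6) to 75.0% (Col4a1). No enrichment is therefore read from the GC box count. TATAAA was found in none of the 7 and in 14.2% of all windows. These matches are letters in a window and no evidence of binding.

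Levels of the 10 genes ran from 0.117 FPKM (Col6a6) to 350 FPKM (Col4a2), as the plot of FPKM in every library shows. With NF serum the mean order was Col4a2, Col4a1, Col6a2, Col5a1, Lox, P4ha1, Col14a1, Loxl4, Col6a6 and Col7a1. Of the 9 neighbouring pairs in that order, 6 had ranges over the 3 NF libraries that did not overlap. The neighbours that overlapped were Lox and P4ha1, P4ha1 and Col14a1, and Col6a6 and Col7a1. With DCM serum the order was the same for the first 8 genes, and Col7a1 then stood above Col6a6 without overlap. There, Col5a1 and Lox, Lox and P4ha1, Col14a1 and Loxl4, and Loxl4 and Col7a1 overlapped. Both collagen IV chains together made up between 65.7% and 72.8% of the summed FPKM of the 10 genes in each library. That sum was 514, 482 and 639 FPKM with NF serum and 739, 729 and 911 FPKM with DCM serum in preparations A, B and C.

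**Figure D1:**
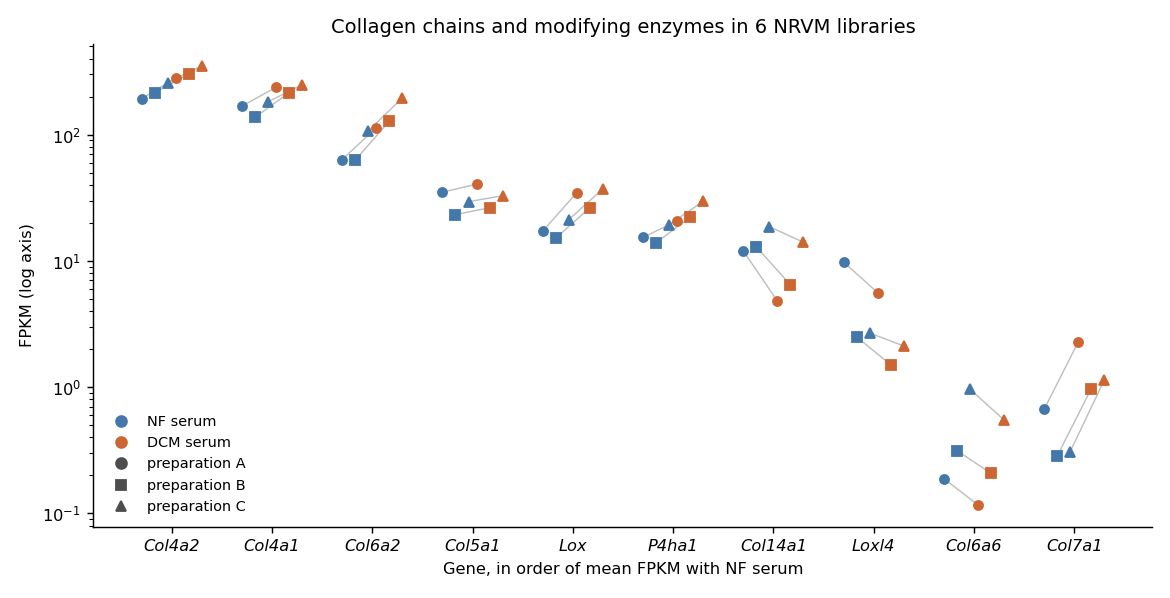
FPKM of the 10 genes on a log axis, in order of the mean with NF serum. Blue symbols are NF libraries, orange symbols DCM libraries, circles, squares and triangles mark preparations A, B and C, and lines join the libraries of a preparation. Col4a2 and Col4a1 lie at or above 137 FPKM in all 6 libraries, and Col6a6 and Col7a1 lie at or below 2.28 FPKM.

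The basement membrane chains were the most abundant members. Col4a1 (ENSRNOG00000016281), the alpha 1 chain of collagen IV, was at 168, 137 and 182 FPKM with NF serum in preparations A, B and C, and at 237, 215 and 248 FPKM with DCM serum. The 3 DCM libraries were all above the 3 NF libraries. The within-preparation ratios of DCM to NF serum were 1.41, 1.57 and 1.36, a mean log2 ratio of 0.53 ± 0.11 (SD, n = 3 preparations). Col4a2 (ENSRNOG00000023972), the alpha 2 chain that combines with alpha 1 in a single trimer, was at 192, 214 and 258 FPKM with NF serum and at 280, 302 and 350 FPKM with DCM serum. Here too the groups did not overlap, and preparation C was highest with either serum. The ratios were 1.46, 1.41 and 1.36, a mean log2 ratio of 0.49 ± 0.05 (SD, n = 3). By mean FPKM the 2 chains ranked 29 (Col4a2) and 44 (Col4a1) among the 3221 rows.

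Markers of endothelium, which also makes collagen IV, were higher with DCM serum too. Of 15 listed endothelial symbols only Pecam1 and Egfl7 are in the table, and both were higher in all 3 preparations, as were 7.82% of rows. Their summed level was 4.46, 2.75 and 4.02 FPKM with NF serum and 6.04, 3.79 and 5.60 FPKM with DCM serum in preparations A, B and C. The summed groups overlapped, and no marker was at 0. The other 13, Cdh5, Tek, Kdr, Flt1 and Vwf among them, were not analysed here. The part of endothelial cells in the collagen IV levels was not tested.

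Collagen VI and collagen V gave 2 chains with a clear abundance and 1 near the lower limit of the table. Col6a2 (ENSRNOG00000001254), the alpha 2 chain of the common collagen VI trimer, was at 63.5, 62.8 and 107 FPKM with NF serum and at 113, 128 and 195 FPKM with DCM serum. All DCM libraries were above all NF libraries, although DCM library A exceeded NF library C by little. Its ratios were 1.78, 2.03 and 1.83 and the mean log2 ratio 0.91 ± 0.10 (SD, n = 3). Col6a6 (ENSRNOG00000023007), the alpha 6 chain that can take the place of alpha 3 in a less common trimer, was at 0.189, 0.314 and 0.964 FPKM with NF serum and at 0.117, 0.207 and 0.549 FPKM with DCM serum. The groups overlapped, and preparation C was highest with either serum. The ratios of Col6a6 were 0.619, 0.660 and 0.570 and its mean log2 ratio -0.70 ± 0.11 (SD, n = 3). It ranked 3219 of 3221 by mean FPKM, and with a pseudocount of 1 its mean log2 ratio was -0.18.

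Col5a1 (ENSRNOG00000008749), the alpha 1 chain of the fibril-forming collagen V, showed the smallest difference of the 10. It was at 35.0, 23.3 and 29.4 FPKM with NF serum and at 40.5, 26.3 and 32.8 FPKM with DCM serum. The groups overlapped, since DCM library B was below NF libraries A and C. The ratios were 1.15, 1.13 and 1.11, a mean log2 ratio of 0.18 ± 0.03 (SD, n = 3), which was also the smallest spread among the members.

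The anchoring fibril chain and the fibril-associated chain were at opposite ends of the ratios. Col7a1 (ENSRNOG00000020579) was at 0.666, 0.284 and 0.309 FPKM with NF serum and at 2.28, 0.971 and 1.14 FPKM with DCM serum. Every DCM library was above every NF library, and preparation A was highest with either serum. Its ratios of 3.42, 3.41 and 3.69 were the largest of the 10 genes and gave a mean log2 ratio of 1.81 ± 0.06 (SD, n = 3). The level was low, with rank 3152 of 3221, and with a pseudocount of 1 the mean log2 ratio was 0.77. Col14a1 (ENSRNOG00000026415) was at 12.0, 12.9 and 18.7 FPKM with NF serum and at 4.81, 6.47 and 14.0 FPKM with DCM serum. The groups overlapped, because DCM library C lay between NF libraries B and C. Ratios of 0.402, 0.501 and 0.752 gave a mean log2 ratio of -0.91 ± 0.46 (SD, n = 3), the largest spread of the 10.

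The modifying enzymes differed in direction. Lox (ENSRNOG00000014426), the lysyl oxidase that crosslinks fibrillar collagen and elastin, was at 17.2, 15.1 and 21.2 FPKM with NF serum and at 34.7, 26.4 and 37.2 FPKM with DCM serum. No DCM library lay in the NF range. The ratios were 2.01, 1.75 and 1.75 and the mean log2 ratio 0.88 ± 0.12 (SD, n = 3). Loxl4 (ENSRNOG00000015727), a lysyl oxidase-like enzyme with additional scavenger receptor domains, was at 9.79, 2.50 and 2.69 FPKM with NF serum and at 5.60, 1.504 and 2.12 FPKM with DCM serum. Its groups overlapped, and preparation A stood above B and C with either serum. The ratios were 0.572, 0.603 and 0.789, a mean log2 ratio of -0.63 ± 0.25 (SD, n = 3). P4ha1 (ENSRNOG00000050655), the catalytic alpha subunit of prolyl 4-hydroxylase, was at 15.3, 13.9 and 19.4 FPKM with NF serum and at 20.7, 22.2 and 29.5 FPKM with DCM serum. Its groups did not overlap, though DCM library A was close to NF library C. The ratios were 1.35, 1.59 and 1.52, with a mean log2 ratio of 0.57 ± 0.12 (SD, n = 3).

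The table as a whole was lower with DCM serum, with median log2 ratios of -0.17 (preparation A), -0.40 (B) and -0.25 (C). The median of the 10 members was 0.51, beside -0.29 over all rows. Relative to the preparation medians, which are negative, the 7 higher members had to remain higher, and the 3 lower members remained lower. The mean log2 ratios were then 0.80 for Col4a1, 0.76 for Col4a2, 0.45 for Col5a1, 1.18 for Col6a2, 2.08 for Col7a1, 1.15 for Lox and 0.84 for P4ha1. For the lower genes they were -0.43 for Col6a6, -0.64 for Col14a1 and -0.35 for Loxl4. In preparation C, Loxl4 and Col14a1 were close to the median row, at -0.09 and -0.16 relative to it. These medians come from selected rows and may differ from those of the whole libraries.

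**Figure D2:**
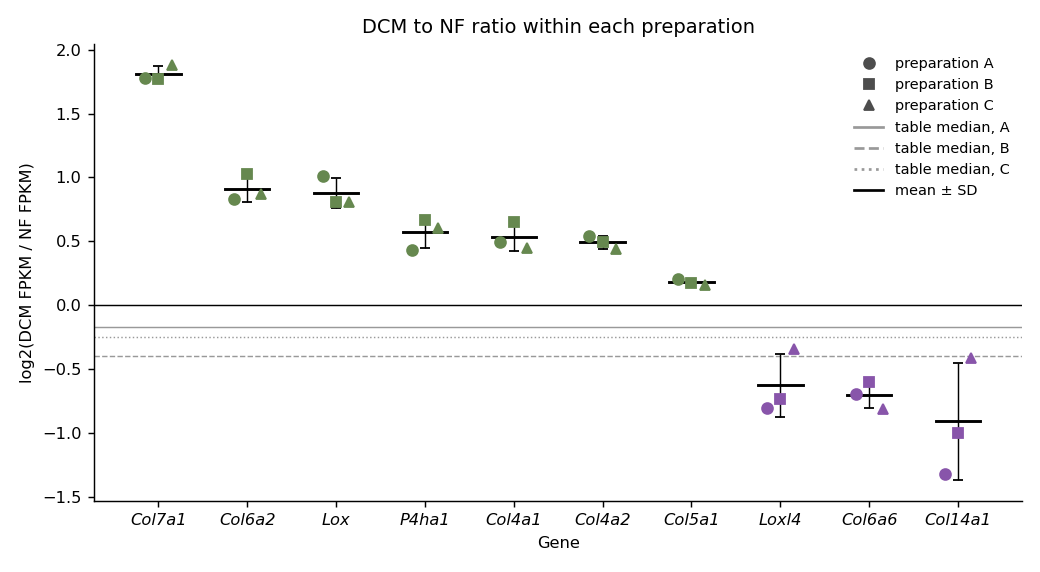
Log2 ratio of DCM to NF FPKM for each gene. Symbols mark preparations A, B and C, black bars the mean ± SD over the 3 preparations, and grey lines the median ratio of the whole table in each preparation. Green genes are above 0 in all 3 preparations and purple genes below 0, with Loxl4 and Col14a1 of preparation C nearest to the table medians.

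Ratios between members in the same library do not depend on the scaling of the library. Col4a1 was below Col4a2 in 6 of 6 libraries, at 0.740 ± 0.121 of its FPKM with NF serum and 0.755 ± 0.0789 with DCM serum (SD, n = 3 each). The DCM to NF quotients of this ratio were 0.968, 1.11 and 1.00, so the balance of the 2 transcripts moved in no common direction. In the protein, alpha 1 chains outnumber alpha 2 chains. The ratio of Lox to Loxl4 was 1.76, 6.06 and 7.89 with NF serum and 6.19, 17.6 and 17.6 with DCM serum. It was higher with DCM serum in each preparation, by 3.52, 2.90 and 2.22 times, as follows from the opposite directions of the 2 genes. The groups overlapped because preparation A was low with either serum.

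The ratio of Lox to Col5a1 was 0.491, 0.649 and 0.720 with NF serum and 0.857, 1.00 and 1.13 with DCM serum. The 2 groups did not overlap, and Lox passed from below Col5a1 in every NF library to about the same level or above in DCM libraries B and C. The rise within each preparation follows from the larger DCM to NF ratio of Lox and is no separate result. Col6a2 was at 336, 200 and 111 times the FPKM of Col6a6 with NF serum and at 969, 616 and 356 times with DCM serum. These groups did not overlap either, and the increase within a preparation was 2.88, 3.08 and 3.21 times. An increase follows from the opposite directions of the 2 genes, and Col6a6 was under 1 FPKM in every library. The ratio of P4ha1 to Col4a1, by contrast, was 0.0998 ± 0.00781 with NF serum and 0.103 ± 0.0159 with DCM serum (SD, n = 3 each). Its groups overlapped, and the quotients of DCM to NF serum were 0.958, 1.02 and 1.118.

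**Figure D3:**
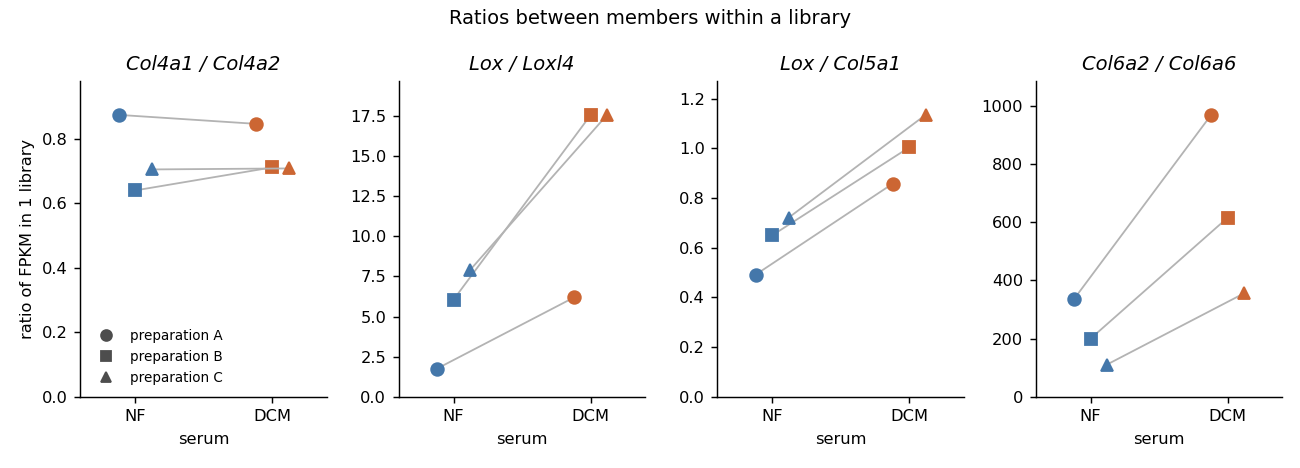
Ratio of the FPKM of 2 genes in the same library, on linear axes from 0, with NF libraries on the left and DCM libraries on the right of each panel and lines joining the libraries of a preparation. Col4a1 to Col4a2 stays between 0.640 and 0.874 in all 6 libraries, while the ratios of Lox to Loxl4, Lox to Col5a1 and Col6a2 to Col6a6 are higher with DCM serum in each preparation. For Lox to Loxl4 and Col6a2 to Col6a6 this follows from the opposite directions of the genes. For Lox to Col5a1 it follows from the larger DCM to NF ratio of Lox. Col6a6 is under 1 FPKM in all 6 libraries.

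The preparations differed in collagen transcripts as well, which the choice of the genes did not use. Over the 6 libraries, the sum of squares of log2 FPKM was divided into serum, preparation and the rest. The serum part is the contrast by which the rows and members were chosen, so the shares are a description only. Serum took the larger share for 6 members, from 63.1% (Col6a2) to 81.7% (Lox), and for 1320 of 3221 rows. Preparation took the larger share for Col5a1 (88.2%), Col6a6 (87.9%), Loxl4 (87.0%) and Col14a1 (47.3%, against 45.1% for serum). The median row had 36.6% for serum and 52.3% for preparation. In each case these are the members whose NF and DCM groups overlapped.

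Preparation A was highest for 3 members. Taking the geometric mean of both sera, Loxl4 was at 7.41 FPKM in A, 1.94 in B and 2.39 in C. Col7a1 was at 1.23 FPKM in A, 0.526 in B and 0.593 in C, and Col5a1 was at 37.7, 24.8 and 31.1 FPKM. Preparation C was highest for the other 7. Of these, Col6a6 varied most, with 0.148 FPKM in A, 0.255 in B and 0.728 in C. Col14a1 was at 7.60, 9.14 and 16.2 FPKM, and Col6a2 at 84.8, 89.6 and 144 FPKM. The collagen IV chains varied least, by 1.24-fold (Col4a1) and 1.30-fold (Col4a2) between the highest and the lowest preparation, where the median row had 1.37-fold.

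By limma's F-test of the preparation coefficients over all rows, all 10 members were called at an adjusted p under 0.10 (adjusted p from 0.00805 for Loxl4 to 0.0940 for Col4a1), against 54.1% of rows. Since the rows were kept for ratios that lie close together, the residual spread is small and these p-values may be too small. Without preparation A, limma called no member (adjusted p from 0.105 to 0.661) and 17 of 3221 rows. At an unadjusted p under 0.05 it then had 7 members and 727 rows. Without preparation C it called Col5a1, Col7a1 and Loxl4, and 1271 rows in all. Without preparation B it called 8 members, all but Col4a1 and Lox, and 1707 rows in all. With all 3 preparations, Col4a1 was not called with a pseudocount of 0.1 (adjusted p = 0.128) or 0.5 (0.111) or after centring on library medians (0.388) in the same limma test.

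Fibroblast and epicardial markers also differed between preparations, though not all in the same order. Lum, a fibril-binding proteoglycan of fibroblasts, was at 5.65, 2.75 and 19.5 FPKM with NF serum in preparations A, B and C, and at 5.44, 1.85 and 11.3 FPKM with DCM serum. C was thus highest, as for these 3 chains, but the lowest preparation was B for Lum and A for the chains. The 4 fibroblast markers in the table, of 16 listed (Vim, Postn, Lum and Dpt), summed to 269, 202 and 297 FPKM with NF serum in A, B and C and to 253, 144 and 254 FPKM with DCM serum, where A and C were nearly equal. Vim, which made up most of that sum, was highest in A with either serum, at 240.0, 186 and 220 FPKM with NF serum and 229, 132 and 209 FPKM with DCM serum. All 4 were lower with DCM serum, as were 92.2% of rows. The 3 epicardial markers of 10 listed (Krt19, Aldh1a2 and Lrrn4) summed to 5.44, 8.54 and 20.9 FPKM with NF serum and to 4.90, 5.66 and 13.9 FPKM with DCM serum, in the order A, B and C, and all 3 were lower with DCM serum, which is again the direction of 92.2% of rows. No marker was at 0, and defining fibroblast markers such as Col1a1, Pdgfra and Tcf21 were not analysed here. The part of these cells in the collagen levels was not tested.

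**Figure D4:**
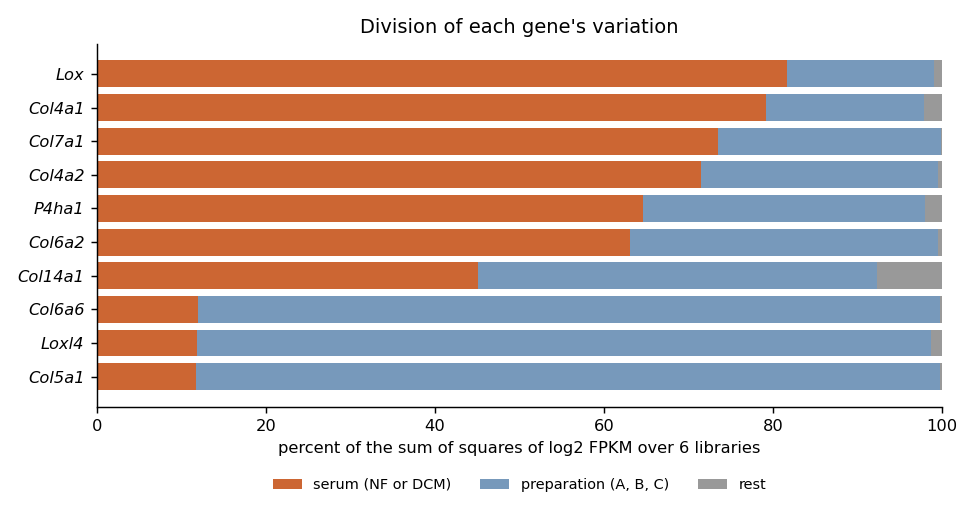
Percent of the sum of squares of log2 FPKM over 6 libraries that falls to serum, preparation and the rest, with genes in order of the serum share. Lox (81.7%) and Col4a1 (79.2%) have the largest serum shares, and Col5a1, Loxl4 and Col6a6 have shares under 12% for serum.

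Of 153 listed symbols of other genes of collagen assembly, breakdown and attachment, older ones included, 20 are in the table. With DCM serum 18 of the 20 were lower and 2 higher, a share close to the 92.2% and 7.82% of all rows, so their direction is that of the table. Paired limma called 15 of them, 1 higher and 14 lower, beside 6.24% and 61.6% of rows. The unpaired fit called none of the 20, beside 0.124% of rows. At an unadjusted p under 0.05 it had 1 of them, beside 16.5% of rows. These fits test the contrast that selected the rows, and the values below are a description. The median log2 ratio of the 20 was -0.44, beside -0.29 over all rows.

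The only other collagen chain in the table was Col4a6, a basement membrane chain of restricted distribution, at 1.72 ± 0.684 FPKM with NF serum and 1.51 ± 0.572 FPKM with DCM serum (SD, n = 3 each). The mean log2 ratio was -0.18 ± 0.11, and the groups overlapped. Col1a1, Col1a2, Col3a1, Col6a1 and Col6a3, the main chains of fibrils and of collagen VI beside Col6a2, were not analysed here.

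Of 40 other listed modifying enzymes and chaperones, 6 are in the table. With DCM serum 2 were higher and 4 lower, and all 6 had overlapping groups. Fkbp10, a collagen chaperone of the endoplasmic reticulum, had a log2 ratio of 0.17 ± 0.04, and Fkbp14, a related protein, one of 0.10 ± 0.02. P4hb, the beta subunit that pairs with P4ha1, was at 394 ± 44.9 FPKM with NF serum and 327 ± 87.8 FPKM with DCM serum (log2 ratio -0.30 ± 0.35). Pcolce, an enhancer of procollagen C-proteinase, had a log2 ratio of -0.30 ± 0.10, and Bmp1, that proteinase itself, one of -0.32 ± 0.25. Adamts3, a procollagen N-proteinase, was at 1.10 ± 0.613 FPKM in NF libraries, with a log2 ratio of -0.91 ± 0.55.

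Of 17 listed collagen-degrading enzymes and inhibitors, only 2 matrix metalloproteinases are in the table. Both were lower with DCM serum, as were 92.2% of rows. Mmp14, a membrane-bound collagenase, had a log2 ratio of -0.36 ± 0.27 and Mmp15 one of -0.86 ± 0.57. Of 15 listed collagen receptors, 2 are in the table. The receptor tyrosine kinase Ddr1 was at -0.20 ± 0.04 and the integrin subunit gene Itga11 at -0.60 ± 0.52 on the log2 scale. Of 23 listed partners of collagen IV in the basement membrane, 5 are in the table. All 5 were lower, the direction of 92.2% of rows. Lama2, the laminin chain of muscle basement membranes, had a log2 ratio of -0.78 ± 0.60, Smoc2 -1.123 ± 0.57, Ntn4 -0.97 ± 0.34, Agrn, which encodes agrin, -0.51 ± 0.34 and Hspg2, which encodes perlecan, -0.16 ± 0.18. Of these, only Ntn4 had all DCM libraries below all NF libraries, as had 25.7% of rows. The 4 fibril-binding proteins in the table, of 19 listed, were lower as well, with overlapping groups. Their log2 ratios were -0.40 ± 0.34 for Postn, -0.47 ± 0.38 for Lum, -0.66 ± 0.48 for Dpt and -0.85 ± 0.58 for Fmod.

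**Figure D5:**
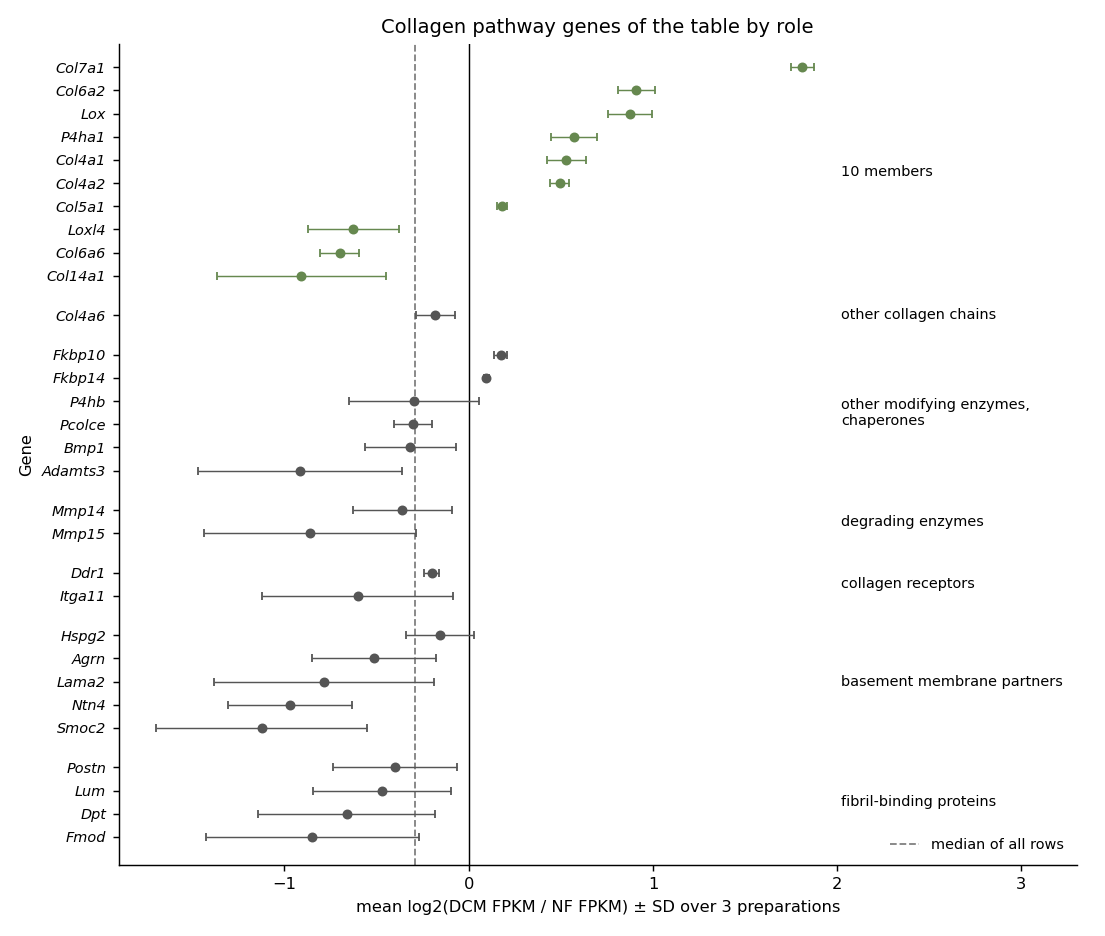
Mean log2 ratio of DCM to NF FPKM with SD over 3 preparations for the 10 genes (green) and the 20 other collagen pathway genes of the table (grey), grouped by role, with the median of all rows as a dashed line. Of the 20, only Fkbp10 and Fkbp14 lie above 0, and 92.2% of all rows lie below 0.

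Cardiac myocyte markers were abundant in every library. Of 20 listed, 2 are in the table. Myl2, the ventricular myosin light chain, was between 6628 and 11358 FPKM, and Mybpc3, a myosin-binding protein of the sarcomere, had a log2 ratio of -0.22 ± 0.18. Of 9 smooth muscle markers 3 are in the table, where Tagln and Smtn were lower with DCM serum and Lmod1 higher. No macrophage or erythroid marker of the lists is in the table.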

How the data were processed

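The study's methods state that single-end directional mRNA reads were aligned with GSNAP and that the authors computed FPKM with Cufflinks. The submitters' processing notes name FastQC and the build Rnor_5.0. The versions of these tools are not given in the sources used here. The deposited FPKM table holds 3221 rows with 3219 distinct Ensembl identifiers. The authors kept the rows of this table for a variance of at least 0.1 and a q under 0.10. Its 6 further columns hold the authors' own fold changes, p-values and q-values and were not used, apart from their names, which give the NF library of each DCM library. No FPKM value was 0, and no filter was applied. The read counts are unknown, so no counting error can be given. A selected table cannot show genes outside it.

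Ratios were formed within each preparation without a pseudocount. Fits across all 3221 rows used limma 3.58.1 in R 4.3.3 on log2(FPKM + 1) with the preparation as a block, at a Benjamini-Hochberg adjusted p under 0.10 over all rows, and were tested on simulated data. After group means were removed, libraries of the same preparation correlated at 0.873, 0.743 and 0.741, and those of other pairs at -0.706 to 0.235. Rows kept for ratios that lie close together push the same-preparation values up. Removing the mean of 3 libraries pushes the other pairs down. The pairing was taken from the column names, and no support for it is read from these correlations. The study also relates DCM to NF serum within each preparation. Summaries and plots were made with Python 3.11.15, pandas 2.3.3, numpy 2.4.6 and matplotlib 3.10.9. In the fits with the block, p-values rest on how the DCM to NF difference varied between 3 preparations, 2 of which share an NF serum label. For each row limma combined this with a spread pooled over all rows (2 residual and 3.11 prior degrees of freedom in the main fit). Alternatives were the fit without the block, pseudocounts of 0.1 and 0.5, a mean FPKM of at least 1, centring on medians, robust eBayes and omission of each preparation. The genes and lists were chosen with earlier results of these data known. Of each other list, up to 6 genes of highest mean FPKM were named, and up to 3 of each marker list. Lum, Postn and Dpt are in more than 1 list. Sequences are from RefSeq (GRCr8).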

Additional observations from a re-analysis of the deposited data

How the results depend on the processing

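The 7 higher and 3 lower members kept their direction under each of the 7 alternatives run for the ratios (pseudocounts of 1 and 0.1, centring, the ratio of group means and omission of each preparation). Each member had a single direction in all 3 preparations, so none of these but centring could have reversed it. The table medians are negative, so centring could have reversed only the 3 lower members. With a pseudocount of 0.1 the mean log2 ratio was 1.57 for Col7a1 and -0.52 for Col6a6. The paired limma fit called 2185 rows for serum, 90.8% of them lower. Without the replicate block limma called 4 rows and 0 of the 20 other collagen pathway genes (1 at an unadjusted p under 0.05, beside 16.5% of rows). Centred on library medians it called 542 rows (254 higher and 288 lower, or 53.1% lower) and 7 of the 20. With 1 preparation left out it called between 592 and 1304 rows, and between 5 and 9 of the 20 against 15 with all 3. For serum, Col5a1 was not called without preparation A, B or C. Loxl4 was not called without B (limma adjusted p = 0.101) or after centring on library medians (0.217). With that centring limma called 8 members, 7 higher and 1 lower. Col6a6 was called with pseudocounts of 0.1 and 0.5. All these serum fits test the contrast that selected the rows, so nothing is read from them for the members. For the difference between preparations limma called 1744 rows, and between 17 (without preparation A) and 1707 with 1 preparation left out, where the lone comparison of 2 preparations has 1 residual degree of freedom. Depth limits Col6a6 and Col7a1 most, both listed under 1 FPKM with NF serum, and their read counts are unknown.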
